A study of Onthophagus taurus with 60 samples.

Results

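A group of 56 protein-coding transcripts of the dung beetle Onthophagus taurus stood higher in the epidermis of the thoracic horn than in each of 7 other regions of the body wall. They were chosen by measured levels, out of 21668 RefSeq transcripts with XM accessions. Levels are CPM, each count divided by the total of its column and multiplied by 1000000. A transcript was taken when its mean in the horn was at least 5 CPM and at least 2 times its mean in every other tissue, and when its mean in the support structures of the abdomen stayed under 2 times the highest of the 6 remaining tissue means. The last condition set aside transcripts raised in the support structures at least 2 times over the 6 remaining tissues. It did not weigh the support structures against the horn, so transcripts high in both could remain. The comparison of the horn with the other tissues was therefore used to choose the transcripts, and all horn levels below are a description without a test.

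The samples were male prepupae, the end of the larval stage, with 8 epidermal tissues of 6 libraries each. The tissues were the thoracic horn, the anterior, posterior and carinated margins and the dorsal centre of the prothorax (called dorsal prothorax here), the wing of the second thoracic segment, the support structures, which are paired projections of abdominal segments, and the dorsal head. Both sides of the wing and of the carinated margin were sequenced separately and averaged here per replicate number. No treatment, allele or transgene is named, and dorsal prothorax and dorsal head had been included as tissues without a published tie to wings.

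Horns of scarab beetles are outgrowths of the epidermis with neither joints nor muscles of their own. In the prepupa the epidermis has come away from the larval cuticle and grows, folded, beneath it, before it lays down the cuticle of the pupa. In O. taurus the prothoracic horn of the pupa is resorbed before the adult emerges, which sets it apart from the head horns that adult males carry. The gene symbols matched to these transcripts were all locus numbers, so that no role is assigned to any of them. Marker genes of epidermis or of other cell types could likewise not be looked up, and the part of other cell types in these levels was not tested. In bulk tissue, fewer cells of a type and less RNA per cell cannot be told apart.

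Horn columns held 13.11 to 16.63 M counts (M, mega). The range over all columns other than the head's was 12.09 to 21.41 M, and the head columns held 74.83 to 87.27 M, so that low transcripts were measured more precisely in the head. Scaling factors of the trimmed mean of M-values (TMM), which adjust totals to the bulk of transcripts, were 0.514 to 0.616 in the horn and 0.796 to 1.384 elsewhere. The 30 transcripts set aside by the support structure condition held 15.09% of all horn counts. CPM by total counts, as used here, place the horn lower than TMM does. With TMM-scaled CPM 272 transcripts met the same thresholds, including all 56 described here.

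The thresholds narrowed the transcripts in 3 steps. A horn mean of at least 5 CPM was reached by 4724 transcripts, 86 of these were at least 2 times every other tissue, and removal of 30 left 56, which is 1.19% of the 4724. Of the 56, 41 matched a gene (39 genes in all) and 15 matched none. Just inside the fold threshold were XM_023050621.1 at 2.06 times its next tissue, LOC111425600 (XM_023059729.1) at 2.06 times and LOC111417011 (XM_023049154.1) at 2.13 times. Just outside it were XM_023045239.1 at 1.98 times, LOC111416168 (XM_023048119.1) at 1.96 times and LOC111429016 (XM_023064804.1) at 1.95 times. At the level threshold, LOC111427342 (XM_023062445.1), LOC111428001 (XM_023063384.1) and LOC111414813 (XM_023046261.1) entered with horn means of 5.84, 6.12 and 6.48 CPM, while LOC111429210 (XM_023065059.1), LOC111427055 (XM_023062016.1) and LOC111424168 (XM_023057609.1) missed it with 4.996, 4.66 and 4.65 CPM. At the support structure threshold, LOC111428018 (XM_023063416.1), LOC111428044 (XM_023063444.1) and LOC111427588 (XM_023062799.1) had a ratio of support structures to the highest remaining tissue of 1.75, 1.75 and 1.67, and LOC111420581 (XM_023053598.1), XM_023059138.1 and XM_023056333.1 were left out at 2.05, 2.05 and 2.28.

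Summed over the 56 transcripts, the level in the horn was 5560 CPM in the lowest library, 8567 in the median and 9196 in the highest (mean 7873 ± 1535, SD, n = 6), or 0.787% of horn counts. The dorsal head ran from 822 through 1180 to 1668 CPM and the support structures from 772.5 through 1087 to 1349 CPM. The wing was the lowest tissue, at 389, 427 and 634 CPM. Every horn library thus lay above every library of any other tissue in the sum, which the choice of transcripts fixes in large part. Among the others, the wing libraries lay below all libraries of head and support structures. The 3 highest transcripts carried 42.9% of the horn sum and the 12 highest 76.0%. Without the 3 highest, the sum in the horn was 3456, 4488 and 5561 CPM.

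**Figure D1:**
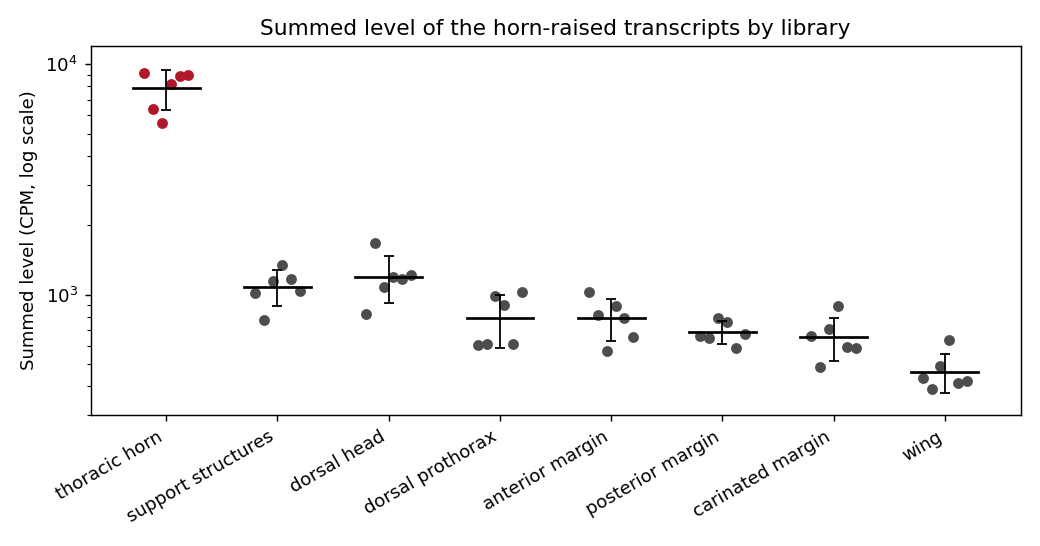
Summed level of the 56 transcripts in CPM (log scale) in each of the 48 libraries, by tissue, with a point for each library and lines for the tissue mean and SD. The 6 horn libraries lie between 5560 and 9196 CPM, and no library of another tissue exceeds 1668 CPM. The choice of transcripts fixes this gap in large part.

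Single transcripts covered a wide range. Horn means ran from 5.84 to 1495 CPM with a median of 46.9, 16 transcripts reached 100 CPM and 8 stayed under 10. The ratio to the next tissue ran from 2.06 to 67.1 with a median of 3.62, and was at least 5 in 19 transcripts and at least 10 in 7. All 6 horn libraries lay above every other library in 20 of the 56, and in the other 36 at least 1 horn library fell within the range of another tissue. Among all 4724 transcripts with a horn mean of at least 5 CPM, such separation was found in 45 (0.953%), a share the choice of transcripts fixes in large part. The next tissue was dorsal prothorax for 14 transcripts, support structures for 12, dorsal head for 11, anterior margin for 6, wing for 6, posterior margin for 4 and carinated margin for 3.

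**Figure D2:**
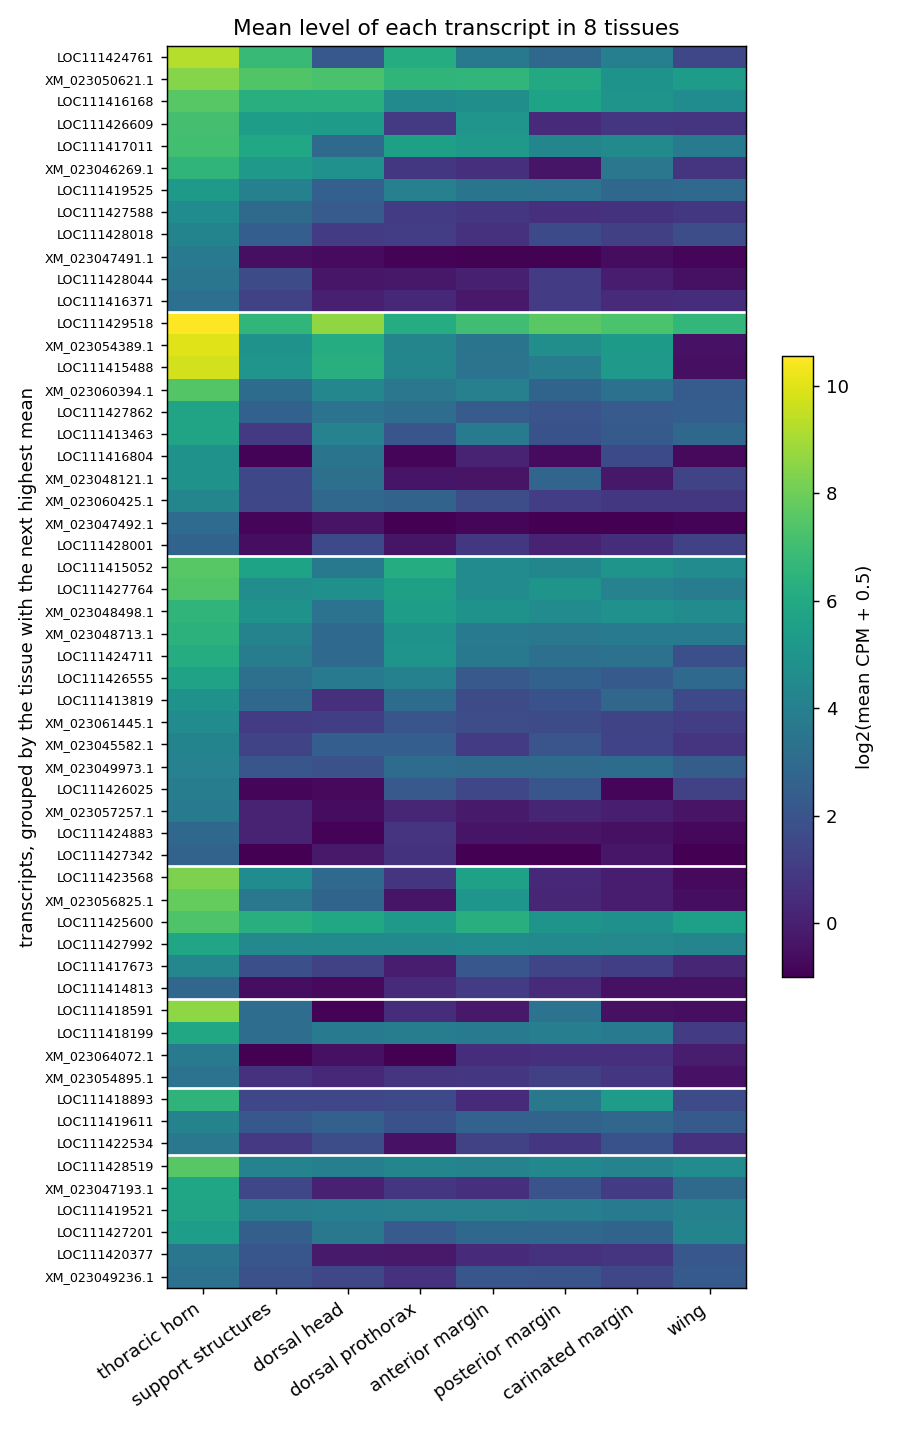
Mean level of each of the 56 transcripts (rows) in the 8 tissues (columns), as log2 of mean CPM plus 0.5, with rows grouped by the tissue that comes next after the horn. The horn column is the brightest in each row, as the choice of transcripts fixes, and the rows differ in which other tissues are bright, dark or even.

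The dorsal head came next for the 3 highest transcripts. LOC111429518 (XM_023065453.1) had 713, 1440 and 2159 CPM in the lowest, median and highest horn library and 157, 333 and 662 CPM in the head, a mean of 1495 against 397.5 CPM (3.76 times). Every other tissue reached at least 70.9 CPM on average, so that it was an abundant transcript of the whole body wall that stood higher still in horn and head. XM_023054389.1, which matched no gene, had 2.76, 1232 and 1602 CPM in the horn and 28.7, 44.3 and 202 CPM in the head (1021 against 71.0 CPM on average, 14.4 times). LOC111415488 (XM_023047190.1) had 121, 967.5 and 1564 CPM in the horn and 7.05, 59.4 and 156 CPM in the head (859 against 76.3 CPM, 11.3 times). Both of the latter were nearly absent from the wing, with highest wing libraries of 0.890 and 0.998 CPM, and in neither did the horn separate from the head: the lowest horn library lay below the whole head range for XM_023054389.1 and within it for LOC111415488. LOC111426038 (XM_023060394.1) also had the head next, with 34.9, 156 and 402.5 CPM in the horn against 10.6, 19.8 and 28.5 CPM (8.94 times). LOC111416804 (XM_023048906.1) was a head and horn transcript at lower level, with 8.12, 23.1 and 77.8 CPM in the horn, 4.61, 10.1 and 17.98 CPM in the head and at most 0.213 CPM in any library of dorsal prothorax.

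The support structures came next for several abundant transcripts. LOC111424761 (XM_023058429.1) had 304, 627 and 871 CPM in the horn and 52.9, 96.9 and 174 CPM in the support structures (611 against 110.5 CPM, 5.53 times). Dorsal prothorax followed at 29.0, 41.5 and 205 CPM, its highest library above every library of the support structures. The transcript was low in the head, at 0, 2.98 and 9.54 CPM, and in the wing, at 0, 0.303 and 6.65 CPM. XM_023050621.1 had 241, 349 and 466 CPM in the horn and 146, 156 and 219 CPM in the support structures, and its 6 horn libraries did not overlap any other library. LOC111416168 (XM_023048118.1) had 89.1, 206 and 262 CPM in the horn against 62.5, 73.2 and 110 CPM (2.38 times), with overlap. LOC111426609 (XM_023061219.1) had 78.0, 117 and 234 CPM in the horn, 18.9, 46.6 and 80.1 CPM in the support structures and about as much in the head and the anterior margin (means of 39.8 and 31.5 CPM), while dorsal prothorax, posterior and carinated margin and wing averaged between 0.786 and 1.46 CPM. This left it high in 4 tissues and near 1 CPM in the other 4.

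The front edge of the prothorax came next for another set. LOC111423568 (XM_023056824.1) had 11.7, 324 and 514 CPM in the horn and 0, 24.2 and 145 CPM in the anterior margin (304 against 48.9 CPM, 6.22 times). XM_023056825.1, whose accession follows directly and which matched no gene, had 167, 196 and 382 CPM in the horn and 4.06, 39.7 and 56.3 CPM in the anterior margin (225.5 against 32.9 CPM, 6.86 times). Both averaged under 1.2 CPM in dorsal prothorax, posterior and carinated margin and wing, but the horn separated from all other libraries only for the second. LOC111425600 (XM_023059729.1) was more even, with 129, 157 and 213 CPM in the horn, 61.5, 77.9 and 101 CPM in the anterior margin and tissue means of at least 27.3 CPM everywhere.

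LOC111418591 (XM_023051157.1) had the largest gap among the abundant transcripts. It had 97.9, 329 and 873 CPM in the horn, 0.934, 8.46 and 15.1 CPM in the support structures and 0, 0.350 and 47.7 CPM in the posterior margin, whose mean of 10.1 CPM placed it next (38.5 times). Posterior margin libraries 2 and 3 had 11.85 and 47.65 CPM and the other 4 at most 0.461 CPM, so that 2 libraries set the posterior margin's place. The head held 0.0244, 0.0360 and 0.0606 CPM.

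Other tissues came next for the following transcripts. LOC111428519 (XM_023064069.1) had 147, 193 and 224 CPM in the horn and means between 15.1 and 23.1 CPM in all 7 others (8.15 times the wing, which came next). LOC111415052 (XM_023046543.1) had 105, 183 and 318 CPM in the horn and 30.5, 60.9 and 123 CPM in dorsal prothorax (2.66 times), with overlap. LOC111418893 (XM_023051597.1) had 22.2, 76.6 and 228 CPM in the horn and 17.8, 28.3 and 101 CPM in the carinated margin, and at most 11.8 CPM on average elsewhere. LOC111427201 (XM_023062217.1) had 37.3, 42.1 and 54.4 CPM in the horn, 16.8, 17.6 and 19.9 CPM in the wing and at most 11.7 CPM on average in the rest, with the horn separated from all other libraries.

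A few transcripts were close to absent outside the horn. The mean stayed under 1 CPM in every other tissue for 4 of the 56. LOC111415683 is represented by 2 of its transcripts: XM_023047491.1 had 1.08, 6.41 and 30.5 CPM in the horn and at most 0.471 CPM in any other library (67.1 times the support structures on average), and XM_023047492.1 had 0, 3.73 and 28.5 CPM in the horn. XM_023047492.1 had 0 counts in dorsal prothorax, posterior margin and carinated margin and was, against a floor of 3 counts over the 6 libraries, at least 237-fold, 275-fold and 516-fold higher in the horn. XM_023057257.1 had 4.27, 12.5 and 24.6 CPM in the horn and at most 0.927 CPM in any other library (19.1 times dorsal prothorax). XM_023064072.1 had 3.08, 13.3 and 26.1 CPM in the horn and 0 counts in support structures and dorsal prothorax (at least 496-fold and 418-fold higher in the horn), yet 5.98 CPM in 1 posterior margin library. LOC111427342 (XM_023062445.1), the lowest of all 56, had 0, 4.42 and 19.3 CPM in the horn and 0 counts in support structures, anterior margin and wing, at least 215-fold, 199-fold and 403-fold lower than the horn. It was not absent elsewhere, with a mean of 1.13 CPM in dorsal prothorax and 4.95 CPM in the highest library there. Summed over all its transcripts, this gene was not higher in the horn (125 CPM, against 127.5 CPM in dorsal prothorax). The fold limits from 0 counts cover counting error only, not the division of reads between transcripts of a gene.

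Levels in the horn differed widely between libraries. The coefficient of variation (CV, SD divided by mean) over the 6 horn libraries had a median of 52.5% over the 56 transcripts and of 24.9% over the 4668 other transcripts of at least 5 CPM. The choice used the mean of these horn libraries, which single high libraries raise, so the horn CV is not independent of the choice. The gap was there at each level: 71.9% against 25.5% between 5 and 20 CPM (21 of the 56), 38.1% against 24.1% up to 100 CPM (19), and 41.1% against 25.7% above (16). It was there in the other tissues too, where the 56 had median CVs between 26.6% (wing) and 52.5% (anterior margin) and other transcripts between 17% and 26.2%. The steadiest was LOC111424711 (XM_023058346.1), with 56.1, 72.2 and 80.9 CPM in the horn and a CV of 13.0%. The least steady was XM_023049236.1, with a CV of 156%: horn libraries 1 and 5 had 21.0 and 33.8 CPM and the other 4 at most 0.693 CPM.

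**Figure D3:**
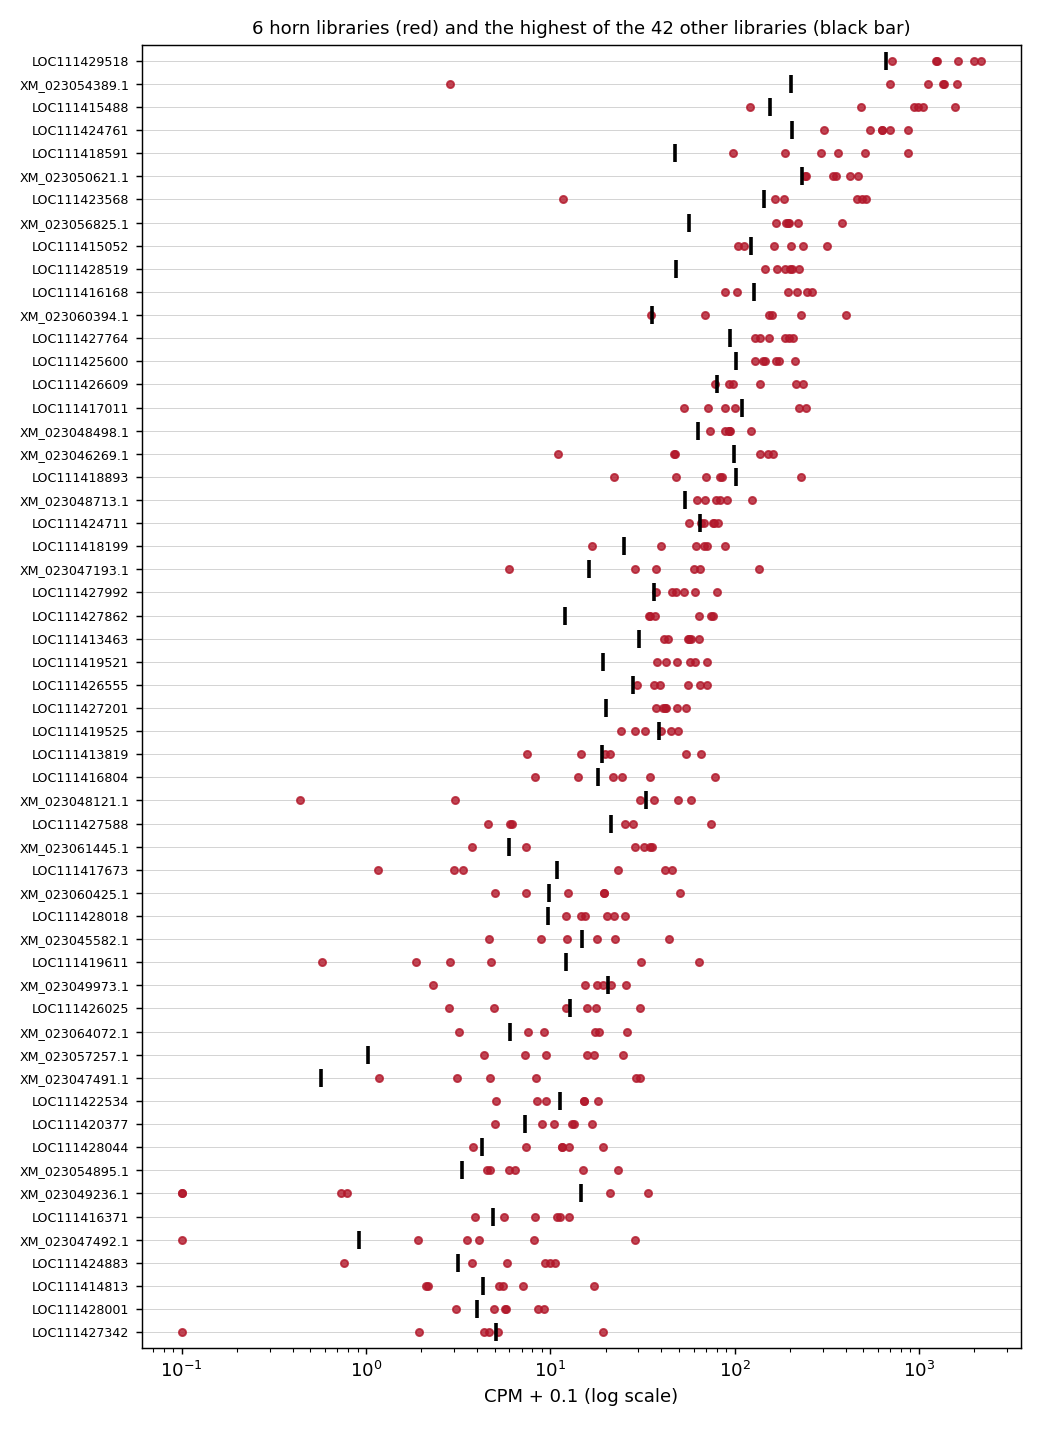
Level of each of the 56 transcripts (rows, by falling horn mean) in the 6 horn libraries (red points) and in the highest of the 42 other libraries (black bar), as CPM plus 0.1 on a log scale. Some transcripts, such as LOC111428519 at 147 to 224 CPM, form a tight group, while XM_023054389.1 spans 2.76 to 1602 CPM.

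Part of this spread was shared by libraries of the same number across tissues. Replicate numbers pair the libraries of all tissues except the head, as correlated deviations between same-numbered libraries showed. The sample titles do not say whether a number stands for 1 animal. XM_023054389.1 was at 2.76 CPM in horn number 3 and at 693 to 1602 CPM in the other 5, and number 3 was also its lowest library, or tied at 0, in each of the 6 paired tissues: 1.02 CPM in support structures, 0 in dorsal prothorax, 0.564 in anterior margin, 0.760 in posterior margin, 0 in carinated margin and 0 in wing. The head, whose numbers do not pair with the others, had 72.0 CPM in its number 3. LOC111423568 was likewise low in number 3, at 11.7 CPM in the horn against 165 to 514 CPM, 2.38 CPM in support structures and 0 in the 3 margins and dorsal prothorax. LOC111418893 was highest in number 4 in the horn (228 CPM, with the others at 22.2 to 85.8) and in all 6 paired tissues, up to 101 CPM in the carinated margin. LOC111415052 and LOC111427588 (XM_023062799.1) were highest in number 4 in the horn and all 6 paired tissues as well, and LOC111429518 was lowest in number 5 in all of them. Sharing of this kind was also seen in other transcripts: the number highest in the horn was highest in all 6 paired tissues for 3 of 56 (5.36%) and for 6.94% of the other 4668, and the lowest was shared by 5 (8.93%) and 6.21%.

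In 17 of the 56, leaving out some single replicate number broke a threshold, and 39 met the thresholds whichever number was left out. LOC111418591 failed the support structure condition without number 3, at a ratio of 3.23, although its horn level was then 52.1 times the next tissue. LOC111424761 failed it without number 6, at 2.58, and XM_023047491.1 without number 4, at 2.50. LOC111416804 fell to 1.79 times the head without number 5, and LOC111419611 (XM_023052436.1), with 0.481, 3.71 and 63.9 CPM in the horn, to 1.37 times its next tissue without number 3. LOC111417011 fell to 1.68 times without number 3 and to 1.88 times without number 4.

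Transcripts of a gene share reads, and the expected counts divide them by estimation, so levels of single transcripts are less certain where a gene has several. Of the 39 genes 27 had a single transcript in the table, and 11 had further transcripts outside the group. Summed over all its transcripts, the gene was at least 2 times every other tissue in the horn for 35 of the 39. For genes with no transcript outside the group the choice fixes this, and among the 11 it held for 7. Of 37 further transcripts with at least 1 CPM in some tissue, 19 were highest in the horn and 4 were at least 2 times every other tissue, against 2.80% and 0.580% of 13868 transcripts outside these genes. In LOC111424761 the division between transcripts differed by tissue: XM_023058429.1 held 67.1% of the gene's level in the horn and 17.8% elsewhere, and the gene as a whole stood at 910 CPM in the horn and 398 CPM in dorsal prothorax (2.29 times). LOC111426038 had 2 horn-raised transcripts, which held 76.3% of its 254 CPM in the horn and 45.7% elsewhere.

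**Figure D4:**
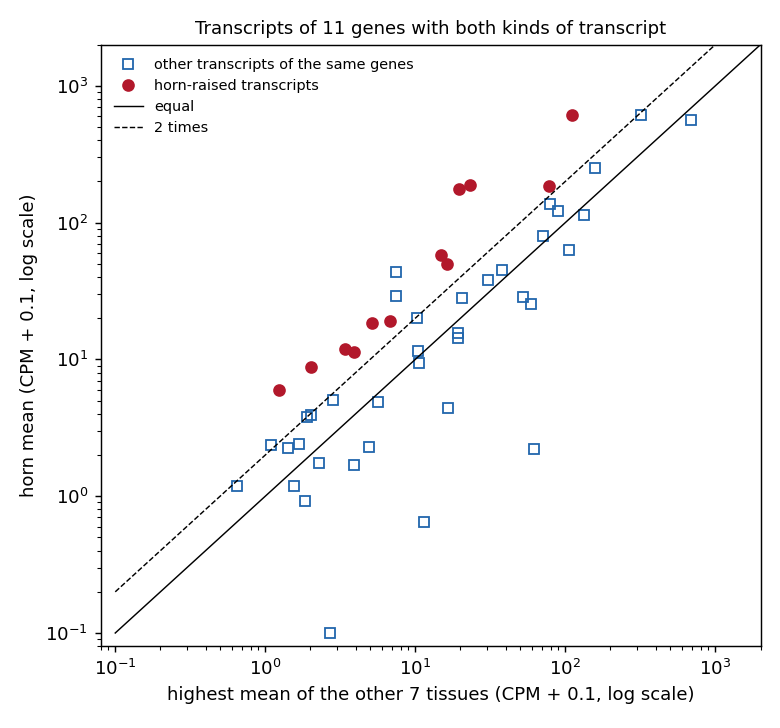
Horn mean (vertical) against the highest mean of another tissue (horizontal) in CPM plus 0.1, both on log scales, for the horn-raised transcripts (filled circles) of the 11 genes with both kinds of transcript and for the other transcripts of these genes (open squares). By their means, 19 of the 37 open squares are higher in the horn and 4 are at least 2 times the next tissue, and the 12 filled circles all lie above the dashed 2-fold line.

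For 4 genes the sum did not hold the 2-fold difference. LOC111418199 stood at 1280 CPM in the horn and 989 CPM in dorsal prothorax (1.295 times), and its horn-raised transcript XM_023050676.1, with 16.7, 65.0 and 89.0 CPM in the horn, was 4.50% of the gene. LOC111422534 was at 96.4 CPM in the horn and 76.0 CPM in support structures (1.27 times), with XM_023055749.1 at 12.3% of it. LOC111426555 was at 1.76 times dorsal prothorax, with XM_023061137.1 at 10.7%. LOC111427342 was at 125 CPM in the horn and 127.5 CPM in dorsal prothorax (0.983 times), with XM_023062445.1 at 4.66%. In these 4 the transcript that met the thresholds was a minor part of a gene that was abundant in several tissues. The higher level in the horn was not confined to it. XM_023050675.1 of LOC111418199 averaged 609.9 CPM in the horn and 321 CPM in anterior margin (1.90 times). XM_023061135.1 of LOC111426555 averaged 250.8 CPM against 157 CPM in dorsal prothorax (1.60 times). XM_023050681.1 of LOC111418199 was lower in the horn, at 561 CPM against 683 CPM in dorsal prothorax.

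The places of the 39 genes were read in the gene order of assembly IU_Otau_3.0, among 10670 placed genes. Only LOC111424761 and LOC111424883 (XM_023058605.1) were direct neighbours, and 7 of the 39 lay within 10 genes of another. Whether this is closer or farther than for other sets of 39 genes was not tested. LOC111424883 had 0.661, 7.52 and 10.6 CPM in the horn, far below its neighbour, and came next in dorsal prothorax at 0.319, 0.648 and 3.06 CPM. Of 54 flanking genes with at least 1 CPM, 3 were highest in the horn (5.6%, against 2.10% of 7547 other genes), and 1 was at least 2 times every other tissue. That gene, LOC111418568 beside LOC111418591, averaged 2014 CPM in the horn and 37.6 CPM in support structures, and did not enter the group because of the support structure condition.

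Whether the low levels outside the horn were even was tested among the other tissues, which the choice of transcripts used only through their highest mean. Of the 56 transcripts 53 had enough counts outside the horn for the test; both transcripts of LOC111415683 and XM_023062445.1 did not. A transcript that passed had counts in at least some of these tissues, so the shares below describe the 53. Over the 6 tissues other than horn and support structures, 39 of 53 (73.6%) differed between at least 2 tissues, against 49.4% of all 15294 transcripts tested (edgeR's quasi-likelihood test, adjusted p under 0.05 over all transcripts). The smallest adjusted p-values by edgeR belonged to LOC111426609 (2.7e-16), LOC111416804 (4.8e-12), LOC111427201 (1.2e-11), XM_023050621.1 (1e-10) and LOC111425600 (1.1e-09).

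**Figure D5:**
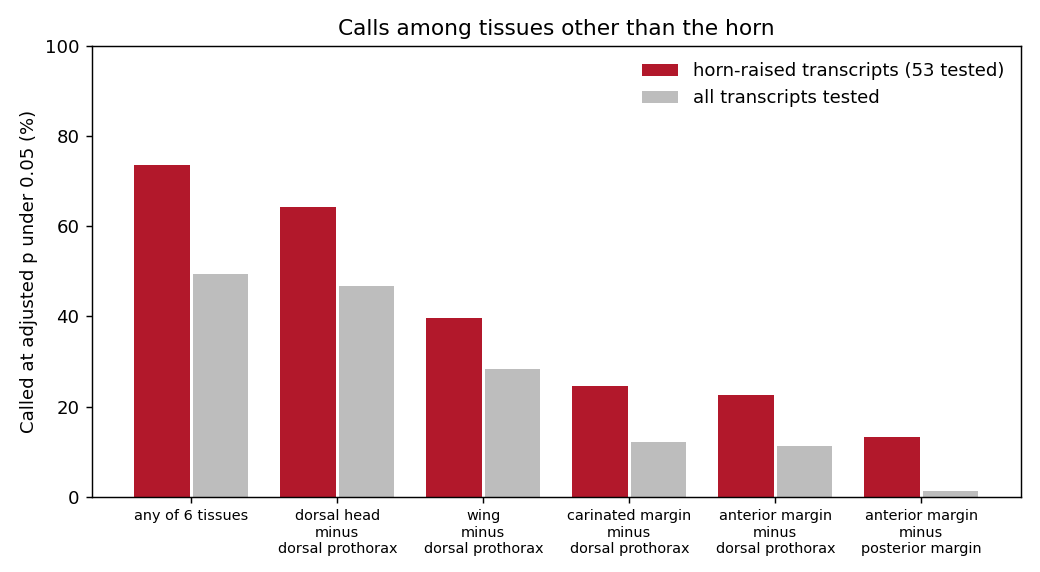
Share (%) of the 53 tested horn-raised transcripts (red) and of all 15294 transcripts tested (grey) that were called at an adjusted p under 0.05 by edgeR, for the test over 6 tissues and for 5 pairs of tissues, none of them the horn. The red bars run from 73.6% over the 6 tissues to 13.2% for the anterior against the posterior margin, and the grey bars from 49.4% to 1.20%.

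Between dorsal head and dorsal prothorax, 34 of 53 differed (64.2%, against 46.8% of all transcripts), 22 higher in the head (41.5% against 26.5%) and 12 lower (22.6% against 20.3%). The median difference was 0.51 log2 units over the 53 and 0.05 over all. With total counts in place of TMM the split was 15 higher and 14 lower, over all transcripts 27.5% of calls were then higher in the head in place of 56.6%, and the median difference of all transcripts was -0.448. LOC111426609 had 17.99, 42.5 and 63.1 CPM in the head and 0.270, 1.40 and 2.49 CPM in dorsal prothorax, higher in the head by 5.31 ± 0.50 log2 units (SE; adjusted p = 3.8e-11, edgeR). LOC111416804 was higher by 7.71 ± 0.90 (adjusted p = 4.9e-09, edgeR). Neither overlapped between the tissues, but both were named for small adjusted p-values, and overlap over all transcripts was not counted. LOC111427201 was higher by 1.88 ± 0.20 (adjusted p = 7.9e-10, edgeR), LOC111416168 by 2.27 ± 0.32 (2.2e-07) and LOC111413463 (XM_023044449.1; 5.80, 17.2 and 30.4 against 1.54, 3.62 and 5.86 CPM) by 2.69 ± 0.39 (4e-07). In the other direction LOC111415052 had 6.42, 9.89 and 20.8 CPM in the head and fell by 2.03 ± 0.41 (adjusted p = 0.0001, edgeR). The head libraries were the deepest, at 74.83 to 87.27 M counts, and their numbers did not pair with those of other tissues. Differences of the head, also within the test over 6 tissues, cannot be told apart from differences between these sets of libraries.

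Between wing and dorsal prothorax the direction turned. Of 53 transcripts 21 differed (39.6%, against 28.3% of all), 5 higher in the wing (9.43% against 16.0%) and 16 lower (30.2% against 12.3%), and the median difference was -0.60 log2 units over the 53 against 0.015 over all. With total counts the split was 4 higher and 16 lower, and over all transcripts 39.4% of calls were then higher in the wing in place of 56.5% (46.3% with RLE size factors). With the replicate number as a block 28 differed, 8 higher and 20 lower, and 5920 in place of 4334 over all. LOC111415488 had 0.000267, 0.0132 and 0.998 CPM in the wing and 9.95, 20.6 and 29.1 CPM in dorsal prothorax, lower in the wing with a difference of -6.51 ± 0.96 (adjusted p = 2e-06, edgeR). LOC111424711 had 1.95, 2.33 and 6.27 CPM against 8.71, 19.4 and 64.9 CPM (-3.24 ± 0.50, adjusted p = 4.3e-06, edgeR), and LOC111418199 (XM_023050676.1) 0, 1.11 and 3.44 CPM against 8.82, 13.6 and 22.0 CPM (-3.17 ± 0.59, adjusted p = 6.6e-05, edgeR). These 3, named for small adjusted p-values, had no overlap between wing and dorsal prothorax. How many of all transcripts had none was not counted. LOC111427201 rose by 2.14 ± 0.20 in the wing (adjusted p = 2.3e-10, edgeR) over 2.78, 4.39 and 7.68 CPM in dorsal prothorax. LOC111428001 (XM_023063384.1) rose by 2.71 ± 0.51 (adjusted p = 7.6e-05, edgeR), from 0, 0.270 and 0.606 CPM to 1.53, 1.67 and 2.39 CPM.

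The carinated margin differed from dorsal prothorax in 13 of 53 (24.5%, against 12.1% of all), 8 higher (15.1% against 7.30%) and 5 lower (9.43% against 4.80%). With the replicate number as a block 20 differed, 10 higher and 10 lower, and 3517 in place of 1850 over all transcripts, 2110 higher and 1407 lower. With total counts the split was 5 higher and 6 lower, and over all transcripts 23.4% of calls were then higher in place of 60.3%. LOC111418893 had 17.8, 28.3 and 101 CPM in the carinated margin and 0.968, 1.77 and 6.40 CPM in dorsal prothorax, higher by 4.23 ± 0.745 (adjusted p = 0.0001, edgeR). LOC111416804, at 0.553, 2.32 and 5.35 CPM, was higher by 5.35 ± 0.83 (adjusted p = 1.5e-05, edgeR). XM_023050621.1 fell by 1.42 ± 0.25 (adjusted p = 9.7e-05, edgeR), from 68.3, 84.4 and 129 to 23.0, 29.3 and 36.25 CPM. LOC111426555 (XM_023061137.1) fell by 1.67 ± 0.335 (adjusted p = 0.00053, edgeR) and LOC111426025 (XM_023060363.1) by 5.37 ± 1.19 (adjusted p = 0.0017, edgeR). The latter had 0.213, 3.10 and 10.97 CPM in dorsal prothorax and 0, 0.0598 and 0.255 CPM in the carinated margin.

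The anterior margin differed from dorsal prothorax in 12 of 53 (22.6%, against 11.2% of all), 9 higher (17% against 6.24%) and 3 lower (5.66% against 4.94%). With the replicate number as a block 19 differed, 11 higher and 8 lower, and 3201 in place of 1709 over all, 1795 higher and 1406 lower. With total counts the split was 8 higher and 3 lower, and over all transcripts 41.9% of calls were then higher in place of 55.8%. LOC111426609 had 12.7, 28.0 and 59.9 CPM in the anterior margin, higher than dorsal prothorax by 4.56 ± 0.48 (adjusted p = 8e-09, edgeR). LOC111425600 was higher by 1.23 ± 0.18 (adjusted p = 6.6e-06, edgeR), XM_023056825.1 by 6.99 ± 1.18 (adjusted p = 5.3e-05, edgeR) and LOC111413463 by 1.93 ± 0.38 (adjusted p = 0.00043, edgeR). LOC111426555 fell by 1.83 ± 0.34 (adjusted p = 0.0002, edgeR), from 9.05, 12.8 and 28.0 to 3.11, 4.01 and 5.44 CPM.

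The front and back edges of the prothorax differed little over all transcripts, with 184 calls (1.20%), and 7 of these were among the 53 (13.2%), 5 higher in the anterior margin (9.43% against 0.706%) and 2 lower (3.77% against 0.497%). With the replicate number as a block 10 differed, 7 higher and 3 lower, and 678 over all. With total counts the split stayed at 5 and 2, and over all transcripts 69.0% of calls were then higher in place of 58.7%. LOC111426609 had 0.613, 0.764 and 1.04 CPM in the posterior margin, and the anterior margin was higher by 5.28 ± 0.50 (adjusted p = 3.4e-09, edgeR). LOC111425600 had 22.9, 32.8 and 38.1 CPM in the posterior margin and was higher in front by 1.31 ± 0.18 (adjusted p = 1.5e-05, edgeR). XM_023056825.1 was higher by 5.67 ± 1.09 (adjusted p = 0.0022, edgeR) and LOC111413463 by 1.97 ± 0.38 (adjusted p = 0.0023, edgeR). None of these 4 overlapped between the margins, but they were named for small adjusted p-values. The share of all transcripts without such overlap was not counted. LOC111423568 was higher in front by 6.10 ± 1.33 (adjusted p = 0.009, edgeR), a call that was lost without number 2 or number 6. LOC111418893 was lower in front, with a difference of -3.86 ± 0.75 (adjusted p = 0.0025, edgeR), with 0.417, 0.895 and 1.20 CPM against 3.00, 7.75 and 36.4 CPM in the posterior margin. LOC111418591 was also lower in front, at -4.73 ± 1.155 (adjusted p = 0.026, edgeR), but its difference was -3.11 with an adjusted p of 0.213 by edgeR with the replicate number as a block.

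Across the 42 libraries outside the horn, the most alike of the 56 were LOC111415052 and LOC111419525 (XM_023052344.1), whose log2 levels correlated at r = 0.860, and at 0.895 over the 6 horn libraries. XM_023048498.1 and XM_023048713.1 followed at 0.846 and 0.541, and XM_023054389.1 and LOC111415488 reached 0.781 and 0.946. XM_023056825.1 and LOC111426609 correlated at 0.795 outside the horn and 0.659 within it. LOC111423568 and XM_023056825.1, with their adjacent accessions, correlated at 0.764 outside the horn and at -0.111 within it. These values are descriptions, since libraries of the same tissue and of the same number are not independent points.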

How the data were processed

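The authors deposited a table of expected counts, which need not be whole (29.7% of values were over 0.001 away from a whole number), for 23725 transcripts in 60 columns. The tools listed, per the submitters' processing notes, were DESeq2, RSEM 1.3.0, Bowtie2 2.3.2 and Trimmomatic 0.32, without roles. Genome build, annotation and strand setting: not given in the sources used here. Columns 1 to 12 of wing and carinated margin carry no side, and column k was paired with k+6 from correlated deviations. The 48 libraries of 6 per tissue are called biological replicates by the submitters. Symbols were taken from RefSeq's table for assembly IU_Otau_3.0 (15104 transcripts matched), used for names and gene order only.

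CPM used the total of all rows of a column. Expected counts were rounded, and for wing and carinated margin summed per replicate number. The 42 libraries outside the horn were filtered by filterByExpr (minimum count 10, minimum total count 15), scaled by TMM and tested with edgeR 4.0.16 (quasi-likelihood, limma 3.58.1, R 4.3.3), tissue as the only term, Benjamini-Hochberg over 15294 transcripts, threshold 0.05. The procedure was tested on simulated counts. Alternatives used RLE size factors, total counts, DESeq2 1.42.0, other filters and fits, genes summed, and each replicate number left out. Same-numbered libraries deviated together in all 21 pairs of tissues without the head (r = 0.267 to 0.741, each of 126 best with its own number) and not with the head (-0.284 to 0.13), so the fit with replicate number as a block leaves out head and horn. The members, gene lists and tests were chosen with earlier results of these data known. Named are the 12 transcripts with the highest horn mean, the 6 with the largest ratio, those next to each threshold, neighbouring genes, the 5 smallest adjusted p-values per test, and the highest and lowest CV. Others were named after their values were seen. Planned lists by protein features, product names and cell type markers could not be applied, because the symbols are locus numbers, and sequences are not used here.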

Additional observations from a re-analysis of the deposited data

Results flagged for a closer look

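Among the 35 transcripts named by rule, 209 groups of 6 libraries were examined for a library whose gap to the nearest other exceeded Dixon's critical value for the group's range, and 32 were found. Chance gives about 1 in 20 when groups are independent and their values normally distributed. Here CPM were not log-transformed, same-numbered libraries deviated together, and some transcripts were named for an extreme CV. The 32 of 209 therefore cannot be set against that share. All 32 were high libraries.

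Number 4 held 17 of them, across paired tissues. LOC111418893 stood at 227.8 CPM in horn number 4 (others up to 85.83), 8.424 in support structures, 6.4 in dorsal prothorax, 36.41 in posterior margin, 101.3 in carinated margin and 7.418 in wing. LOC111427588 stood at 74.6 CPM in horn (others up to 28.0), 21.33 in support structures, 3.224 in anterior margin and 2.083 in carinated margin. LOC111424711 had 26.93 CPM in anterior margin, 22.99 in carinated margin and 6.27 in wing. Number 4 was also high for LOC111417011 in carinated margin (43.25 CPM), LOC111413463 in support structures (3.525 CPM), LOC111428519 in support structures (47.96 CPM) and LOC111427342 in horn (19.25 CPM).

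In the other horn libraries, LOC111414813 stood apart in number 3 (17.16 CPM, others up to 7.002), and in number 5 XM_023047492.1 (28.54 CPM, others up to 8.034) and XM_023056825.1 (381.9 CPM, others up to 220.3). Head number 2 was high for XM_023054389.1 (202.0 CPM), XM_023049236.1 (11.3 CPM) and LOC111428519 (37.87 CPM). Number 1 was high for LOC111426025 in anterior margin (9.737 CPM) and posterior margin (12.63 CPM), for LOC111415488 in anterior margin (28.96 CPM) and for XM_023054389.1 in posterior margin (88.07 CPM). LOC111418591 stood at 47.65 CPM in posterior margin number 3 (others up to 11.85). In dorsal prothorax, LOC111424761 stood at 205.0 CPM in number 6, LOC111423568 at 4.915 in number 2 and LOC111427342 at 4.953 in number 5. LOC111413463 stood at 11.27 CPM in wing number 2.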

How the results depend on the processing

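The number of transcripts that met the thresholds rested on the scaling: 272 with TMM and 315 with RLE size factors, against 56 by total counts, of which 56 and 55 were kept. A fold of 3 gave 36, a fold of 1.5 gave 100 and a minimum of 1 CPM gave 92. Medians gave 57 (49 shared), summed genes 50, and the total of XM rows alone, chosen after seeing the data, 58. Leaving out each replicate number gave 57 to 64.

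With the replicate number as a block, calls rose for the wing against dorsal prothorax (28 horn-raised, 5920 in all), the carinated margin against dorsal prothorax (20 and 3517), the anterior margin against dorsal prothorax (19 and 3201) and the anterior against the posterior margin (10 and 678). The block fit left out the head, so the calls between head and dorsal prothorax were not checked with it. The same holds for the calls of the joint test over tissues that include the head. Among the member calls in the pairs just listed, only that of LOC111418591 in the last pair was lost under the block. For that pair summed genes gave 11 horn-raised calls and DESeq2 419 calls in all.

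Leaving out each replicate number gave, horn-raised and in all, 34 to 37 and 6371 to 7257 over 6 tissues, 29 to 32 and 6269 to 6879 for head, 16 to 19 and 3327 to 4162 for wing, 8 to 12 and 1202 to 1756 for carinated margin, 10 to 13 and 1115 to 1600 for anterior margin, each against dorsal prothorax, and 5 to 8 and 89 to 173 for anterior against posterior margin. Number 3 or 6 gave the 8. In all transcripts, number 3 gave 1202 for carinated margin, numbers 3 and 6 gave 1117 and 1115 for anterior margin, and numbers 2, 3, 5 and 6 gave 114, 105, 106 and 89 between the margins. The cause was not tested.

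Of 126 member calls 40 were lost under at least 1 alternative, and 1 changed sign: LOC111419521 (XM_023052337.1), higher in head than dorsal prothorax by 0.48, gave -0.0305 with total counts. Those lost include the head call of XM_023054389.1 and the wing call of LOC111413463. Depth limits low transcripts more outside the head, whose columns were the deepest.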

Other observations

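Among the 2057 non-coding transcripts (XR accessions), 3 met the same thresholds. XR_002707775.1, a transcript of LOC111426038, averaged 43.3 ± 28.1 CPM in the horn (SD, n = 6; 11.99 to 91.2) and 7.29 CPM in the head, which came next (5.94 times). XR_002706691.1 averaged 7.89 CPM in the horn, with a range of 0.240 to 22.8, and 3.73 CPM in the posterior margin. XR_002706864.1 (LOC111418785) averaged 6.11 CPM in the horn, with a range of 0 to 21.0, and 1.99 CPM in the carinated margin. In the last 2 the horn libraries overlapped those of the next tissue.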
